A study of Coelastrella tenuitheca with 9 samples.

Results

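The genes described here are 172 undescribed genes of Coelastrella tenuitheca S93-3, a green microalga, whose transcripts were higher than in the control at 20 mg/L CdCl2 and lower than in the control at 50 mg/L. They were taken from 10148 genes with no product name, out of 12605 genes in all, by 3 thresholds on counts divided by median-of-ratios size factors (normalised counts): an overall mean of at least 50, a Cd20 mean of at least 1.4 times the Control mean, and a Cd50 mean of at most 0.7 times the Control mean. The wild-type strain was pre-cultured for 5 days with 20 g/L glucose under continuous light, then grown for 7 days in fresh medium with 0 mg/L (Control), 20 mg/L (Cd20) or 50 mg/L CdCl2 (Cd50). Each group had 3 poly(A)-selected RNA libraries, all labelled batch 1 and named here by group and replicate number. Nothing in the labels ties the 3 libraries of each group to separate flasks, so the calls from tests given here reflect the spread among samples, and that spread may be technical. Total counts per library ran from 10457007 to 15456743. Photosynthesis genes, which should mark these cells, were present in all 3 groups, with 13 of 16 genes of that kind at a mean of at least 50 and summed normalised counts of 34592 to 36508 in Control, 21008 to 23543 in Cd20 and 23409 to 27013 in Cd50. In nearly all of the 172 genes Control 1 stood above the other Control libraries and Cd50 1 above the other Cd50 libraries, so the number of members, their leading ranks by ratio and the named ratios that moved by over 1.5 times are also given without these 2 libraries.

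Cadmium is a metal with no general nutritional role in algae, and it binds thiol groups and can displace zinc and other metals from proteins. Transcripts that respond to a toxic metal do not have to change steadily with its concentration: a transcript may lie above its unexposed level at a lower concentration and below it at a higher one. A gene without a product name is a predicted or assembled locus for which the deposited annotation lists no similar protein, so no role can be given for these members, and they are called by their identifiers. No sequence of these genes was in the material used, so none is shown.

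Among undescribed genes at the same mean, 1594 of 7051 reached a Cd20 mean of 1.4 times the Control mean (22.6%) and 1506 had a Cd50 mean of at most 0.7 times the Control mean (21.4%). The members are the 172 genes that met both, or 2.44% of the 7051. Of the genes raised at 20 mg/L, 1129 lay between 0.7 and 1.4 times the Control mean at 50 mg/L, and 293 were also at 1.4 or more there. Of the genes lowered at 50 mg/L, 991 lay between these limits at 20 mg/L and 343 were at 0.7 or less at both concentrations. Both ratios use the same 3 Control libraries. Since the same ratios chose the members, the values that follow for group means are a description and no test of the pattern.

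Within the members the Cd20/Control ratio ran from 1.4034 to 3.26 with a median of 1.60. The Cd50/Control ratio ran from 0.238 to 0.697 with a median of 0.602. Over the 7051 undescribed genes at the same mean the medians were 1.04 and 0.972. Most members sat close to the thresholds: 26 were at least 2-fold above Control at 20 mg/L, 30 were at 0.5 times Control or less at 50 mg/L, and 6 were both. These 6, named after their values were seen, were A00351, A02735, A02986, A05591, A10207 and Novel00539. The Cd20 mean of a member was 2.11 to 7.79 times its Cd50 mean, with a median of 2.85. Without Control 1 and Cd50 1, which leaves 2 libraries in each of those groups, the median Cd20/Control ratio of the same 172 genes was 1.83, their median Cd50/Control ratio 0.542 and their Cd20/Cd50 ratio 2.25 to 14.1 with a median of 3.50. The Cd20/Control ratio moved by over 1.5 times in 0 members, the Cd50/Control ratio in 7 and the Cd20/Cd50 ratio in 26. Control 1 was the highest Control library in nearly all members, so leaving it out had to raise most Cd20/Control ratios.

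**Figure D1:**
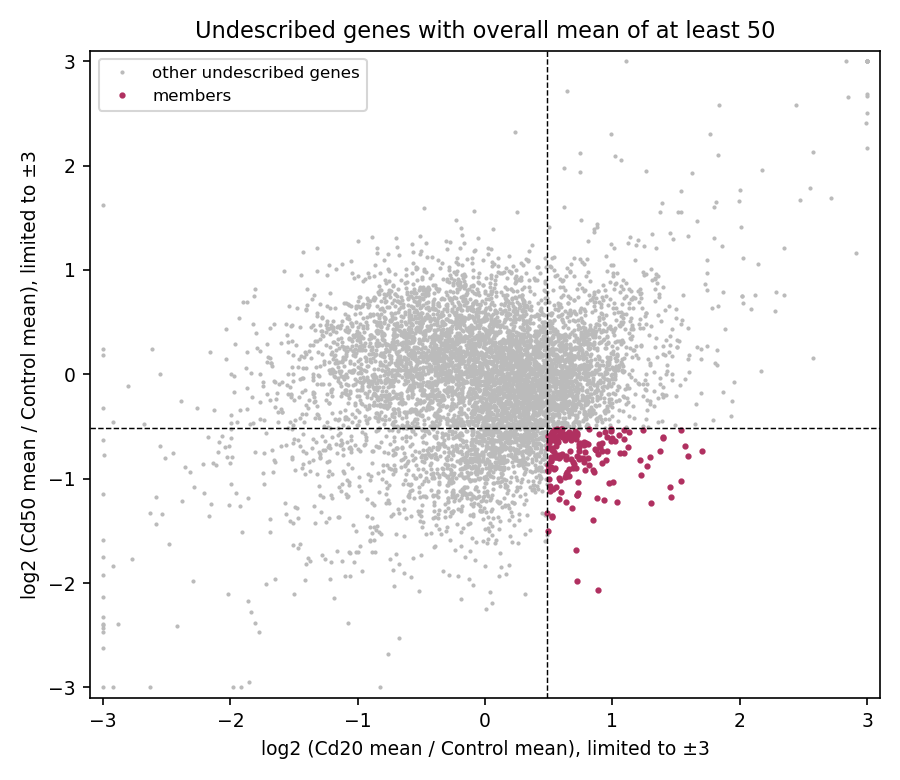
Each point is an undescribed gene with an overall mean of at least 50 normalised counts. The horizontal axis is the log2 ratio of the Cd20 mean to the Control mean and the vertical axis the log2 ratio of the Cd50 mean to the Control mean, both drawn no further than 3 in either direction, and dashed lines mark the thresholds of 1.4 and 0.7. The 172 members (red) fill the lower right corner, which only the dashed lines set off from the other genes (grey), and most of them lie near these lines.

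A03191, a short gene of 582 bp of coding length, had the highest Cd20 mean relative to its Cd50 mean over all 9 libraries, 7.79 times. Its normalised counts were 344, 146 and 219 in the Control libraries, 373, 435 and 505 in the Cd20 libraries, and 102, 31.2 and 35.2 in the Cd50 libraries. The 3 groups did not overlap, although Control 1 came within reach of the lowest Cd20 library, and Cd50 1 lay well above Cd50 2 and Cd50 3. Its Cd50 mean was 0.238 times the Control mean, the lowest of all members over the 9 libraries, and its Cd20 mean was 1.85 times the Control mean. Without Control 1 and Cd50 1 both first places went to A05068, the gene described next: its Cd20/Cd50 ratio was then 14.1 and its Cd50/Control ratio 0.132, whereas A03191 had 13.2 and 0.183. A03191 lies on chromosome 16 from 420991 to 422384 in the authors' coordinates, for which no assembly name was found in the sources used. Single values of a group are listed in the order of replicates 1, 2 and 3 throughout.

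A05068, on chromosome 2 from 891837 to 897667, had 2016, 1348 and 1561 normalised counts in the Control libraries, 2172, 2405 and 3525 in the Cd20 libraries, and 866, 183 and 200.3 in the Cd50 libraries. Again the groups were apart, with Cd20 3 the highest and Cd50 1 several times above the other libraries of its group. Over all 9 libraries the Cd50/Control ratio of A05068 was 0.254. The gene with the third highest Cd20/Cd50 ratio in either case, A00351 on chromosome 10 from 3190212 to 3198677, had 3983, 1853 and 2703 in the Control libraries, 6556, 7024 and 9871 in the Cd20 libraries, and 2553, 624 and 614 in the Cd50 libraries. Here all Cd20 libraries stood above all controls, but Cd50 1 lay inside the control range, above Control 2 and just under Control 3. The Cd50/Control ratio of A00351 was 0.444 with all libraries and 0.273 without Control 1 and Cd50 1. A05591 had the same arrangement, with 2232, 939 and 1401 in the Control libraries, 3776, 4339.6 and 5200.1 in the Cd20 libraries, and 1428, 442 and 382 in the Cd50 libraries, and lies on chromosome 2 from 480749 to 496547. In this gene Cd50 1 exceeded both Control 2 and Control 3.

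A10207, on chromosome 8 from 2809137 to 2812900, averaged 983 ± 334 normalised counts in Control, 2424 ± 253 in Cd20 and 418 ± 237 in Cd50 (SD, n = 3 each). The corresponding means for A02986, on chromosome 15 from 2701207 to 2702239, were 119 ± 56.3 in Control, 327 ± 90.5 in Cd20 and 56.5 ± 30.7 in Cd50. In both genes the Cd20 libraries were clear of the controls, whereas Cd50 1 reached above Control 2. A10479, on chromosome 9 from 3543513 to 3545126, had 609.6, 391 and 492 in the Control libraries, 749, 819 and 886 in the Cd20 libraries, and 230.4, 136 and 97.4 in the Cd50 libraries, with no overlap between any groups. The remaining gene of the leading 8, A05781, is given next. Without Control 1 and Cd50 1 the leading 8 held Novel01137 (Cd20/Cd50 ratio 11.2), A07084 (10.4) and A06592 (8.79) in place of A10207, A02986 and A10479.

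**Figure D2:**
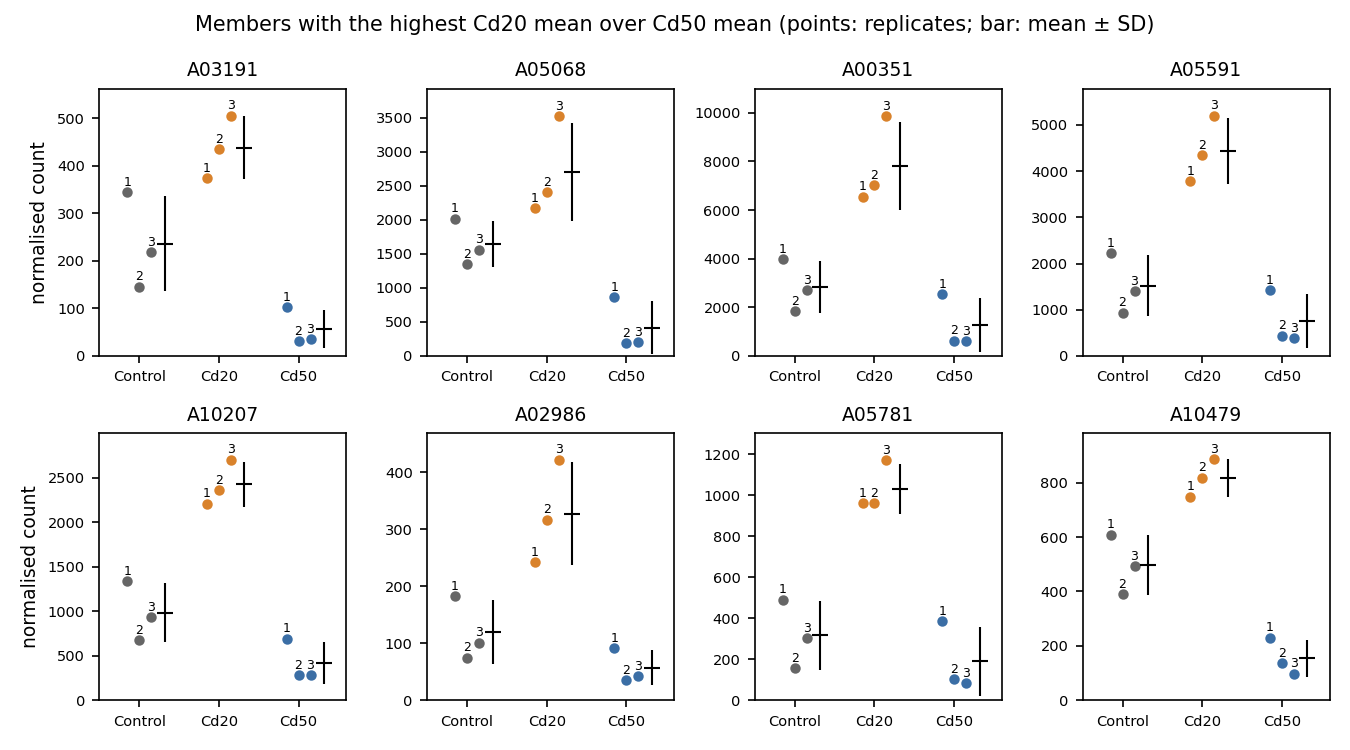
Normalised counts (vertical axis, from 0, scaled per gene) of the 8 members with the highest Cd20 mean over Cd50 mean, in Control, Cd20 and Cd50 libraries (horizontal axis). Points carry the replicate number, and the bar beside each group is its mean ± SD (n = 3). In each gene shown, Control 1 is the highest Control library, Cd20 3 the highest Cd20 library and Cd50 1 the highest Cd50 library.

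The highest Cd20 means relative to Control were those of A05781, A07084, Novel01137 and A05591, with Cd20 means of 3.26, 3.03, 2.97 and 2.91 times the Control mean. A05781, on chromosome 2 from 5154849 to 5157501, had 491, 156 and 301 normalised counts in the Control libraries, 961, 962 and 1172 in the Cd20 libraries, and 385, 103 and 83.0 in the Cd50 libraries. Every Cd20 library was far above the highest control, while the Control libraries themselves differed 3.14-fold and Cd50 1 lay above Control 2 and Control 3. A07084, on chromosome 4 from 1629209 to 1634048, had 356, 164 and 232 in the Control libraries, 517, 684 and 1073 in the Cd20 libraries, and 289, 83.6 and 63.2 in the Cd50 libraries. Novel01137, on chromosome 4 from 5352635 to 5358028, had 364, 207 and 241 in the Control libraries, 674, 793 and 939.7 in the Cd20 libraries, and 359.7, 70.1 and 74.0 in the Cd50 libraries. In these last 2 genes the lower Cd50 mean came from Cd50 2 and Cd50 3, and Cd50 1 was within the control range. Their Cd50/Control ratios were 0.580 and 0.621 with all libraries, and 0.372 and 0.323 without Control 1 and Cd50 1. Without these libraries the highest Cd20/Control ratios were those of A05781 (4.53), A06592 (4.14), A07084 (3.85) and A05591 (3.81). The lowest Cd50 means relative to Control over all libraries, besides those of A03191, A05068 and A10479, belonged to A10628 (0.354 times Control), which had 244, 100.5 and 120.0 in the Cd50 libraries against 521, 365 and 427 in the Control libraries, with no overlap. Without Control 1 and Cd50 1 the 4 lowest were A05068, A03191, A09654 (0.261) and A10479 (0.265).

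By normalised count the most abundant members were A10223, A10544, A09654, A01896 and A09797. On a scale per coding length the first 3 of these averaged 504 ± 114, 1513 ± 271 and 327 ± 74.1 FPKM (fragments per kilobase of gene length, scaled to the library total) in Control (SD, n = 3 each), against a median of 25.9 FPKM over all libraries for the 172 members and 18.4 for the 7051 undescribed genes at the same mean. A10544, a gene of only 441 bp of coding length on chromosome 9 from 4032295 to 4033130, was the highest of all members per length. Its normalised counts were 9953, 6465 and 7602 in the Control libraries, 11946, 11718 and 13685 in the Cd20 libraries, and 7175, 4341 and 4262 in the Cd50 libraries, with Cd50 1 above Control 2. FPKM divides by the library total, so its ratios between groups follow library size and differ from those of normalised counts. A10223, on chromosome 8 from 2938282 to 2941946, had 12979, 7674 and 9488 normalised counts in the Control libraries, 20764, 22618 and 29568 in the Cd20 libraries, and 9063, 3667 and 3700.1 in the Cd50 libraries. A09654, on chromosome 7 from 3107511 to 3115860, had 9155, 5390.1 and 6729 in the Control libraries, 10919, 12409 and 14882 in the Cd20 libraries, and 4936, 1635 and 1524 in the Cd50 libraries. The groups of A09654 did not overlap, whereas in A10223 Cd50 1 lay above Control 2. A01896 averaged 4709.9 ± 1133 in Control, 7109.6 ± 594 in Cd20 and 2734 ± 433 in Cd50, and A09797 averaged 4193 ± 542, 6782 ± 516 and 2765 ± 704 in the same order (SD, n = 3 each). Both had modest changes, at 1.51 and 1.62 times Control at 20 mg/L, and none of their libraries overlapped between groups. Together the 172 members took up 0.994% to 1.46% of the counts in Control libraries, 1.73% to 2.14% in Cd20 libraries and 0.670% to 1.13% in Cd50 libraries. Because RNA came from whole cultures, fewer cells expressing a gene and less of its RNA per cell cannot be told apart.

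The thresholds use group means and not the order of the libraries within a group. Nearly all members shared that order. Control 1 was the highest Control library in 166 of 172 members, Control 2 the lowest in 158, Cd20 3 the highest Cd20 library in 152 and Cd50 1 the highest Cd50 library in 169. Relative to the Control mean of each gene, the median member was at 0.33, -0.32 and -0.08 on the log2 scale in the Control libraries, then at 0.55, 0.63 and 0.82 in the Cd20 libraries, and at -0.26, -1.08 and -1.14 in the Cd50 libraries. Control 1 thus lay on the side of Cd20, and Cd50 1 lay far closer to the controls than Cd50 2 and Cd50 3 did. The same 9 medians over the 7051 undescribed genes stayed between -0.09 and 0.08.

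**Figure D3:**
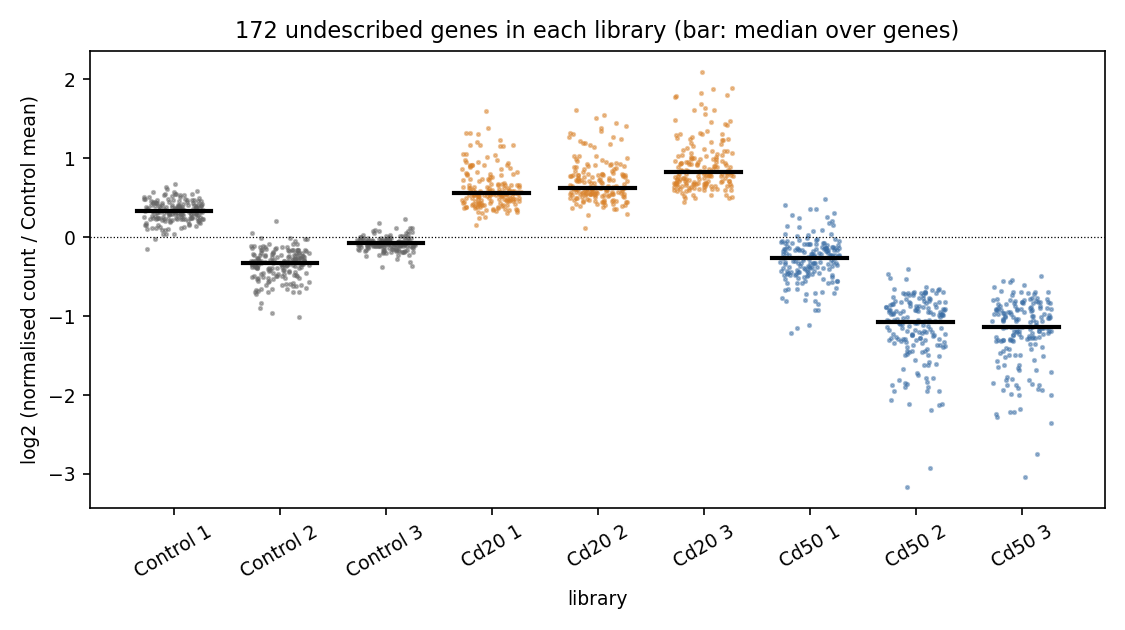
Each point is 1 of the 172 members in the library named on the horizontal axis, as the log2 ratio of its normalised count to its Control mean (vertical axis, no unit), and the black bar is the median over members. Control 1 sits above the other controls and Cd50 1 above the other Cd50 libraries, at medians of 0.33 and -0.26.

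The spread inside groups was correspondingly wide. The median coefficient of variation of a member was 23.7% in Control, 10.9% in Cd20 and 36.1% in Cd50, where the 7051 undescribed genes had medians of 12.6%, 8.43% and 12.9%. The 3 members whose controls differed most were A05781, A06592 and A03496. A06592 had 382, 124 and 215 normalised counts in the Control libraries, 601, 611 and 881 in the Cd20 libraries, and 337, 88.7 and 70.4 in the Cd50 libraries. For A03496 the values were 147, 54.6 and 104 in the Control libraries, 195, 192 and 220.3 in the Cd20 libraries, and 90.7, 64.2 and 57.7 in the Cd50 libraries. In A06592 the Cd50 library 1 was close to Control 1 and above the other 2 controls, and in A03496 all 3 Cd50 libraries lay above Control 2. A03496 was the 1 member in which Cd50 2 or Cd50 3 also entered the control range.

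Overlap of Cd20 with Control came from Control 1, and overlap of Cd50 with Control almost entirely from Cd50 1. All Cd20 libraries exceeded all Control libraries in 153 of 172 members (34.8% of the 7051 undescribed genes), and in the other 19 members Control 1 was the only control not below every Cd20 library. All Cd50 libraries were below all Control libraries in 78 members (27.9% of the 7051). Of the 94 members that overlapped, Cd50 1 was the only Cd50 library to do so in 93. The control it passed was mostly Control 2. Cd50 1 was above Control 2 in 94 members (50.3% of the 7051), above Control 3 in 32 and above Control 1 in 1. Cd50 2 and Cd50 3 were both below all controls in 171 of 172 members and in 40.2% of the 7051. Taken alone, Cd50 1 was at 0.7 times the Control mean or less in 29 members, against 170 for Cd50 2 and 171 for Cd50 3, and in 19 members it was above the Control mean. Set against the Control library of its own replicate number, Cd50 1 was lower in 171 members, Cd50 2 in 171 and Cd50 3 in 172, where 52.9%, 51.6% and 54.5% of the 7051 were lower. The median ratio within these pairs was 0.670, 0.587 and 0.489 for replicates 1 to 3, so within its replicate number Cd50 1 differed from Control 1 in the same direction as the others. All Cd50 libraries were below all Cd20 libraries in 171 members (45.2% of the 7051), and the 3 groups were fully apart in 72 (5.09% of the 7051). As the thresholds use the same contrasts, these shares show only how far the members' libraries were separated.

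Genes that met 1 of the 2 ratio thresholds showed the same order of libraries, less uniformly. Control 1 was the highest Control library in 96.5% of the members, 83.1% of the 1129 undescribed genes raised at 20 mg/L alone, 82.3% of the 991 lowered at 50 mg/L alone, 41.0% of the 293 raised at both and 50.3% of all 7051. For Cd50 1 as the highest Cd50 library, the shares in the same order were 98.3%, 83.8%, 85.0%, 37.9% and 48.1%. With Cd20 3 as the highest Cd20 library they were 88.4%, 56.6%, 72.1%, 36.2% and 41.9%. With Control 2 as the lowest Control library they were 91.9%, 75.6%, 64.3%, 38.9% and 44.0%. The 343 genes at 0.7 or less at both concentrations were not examined in this way. The genes raised at both concentrations did not share the order of the members. No test of these differences was made, since all classes come from the same 9 libraries.

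Choosing genes on 2 replicate numbers and reading them in the third gives values that the choice did not use. When replicates 2 and 3 chose 436 genes, 283 of them (64.9%) were higher in Cd20 1 and lower in Cd50 1 than in Control 1, against 19.9% of undescribed genes at the same mean. Only 9 genes (2.06%) passed both ratio thresholds there, against 0.254%. The median Cd20/Control ratio of the chosen genes was 1.10 in replicate 1, against 1.66 in the replicates that chose them, and the median Cd50/Control ratio was 0.685 against 0.576. In replicate 1 the chosen genes were thus only slightly higher at 20 mg/L, while the ratio at 50 mg/L stayed closer to its value in the other replicates. The other 2 replicate numbers behaved differently. Of 132 genes chosen on replicates 1 and 3, 95.5% kept both directions in replicate 2 and 65.2% passed both thresholds, against 29.5% and 4.80% of undescribed genes. Of 85 genes chosen on replicates 1 and 2, 100% kept both directions in replicate 3 and 94.1% passed both thresholds, against 34.8% and 7.96%. With 1 library per group in each reading there is no replicate check, and what the replicate numbers stand for is not explained in the labels.

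**Figure D4:**
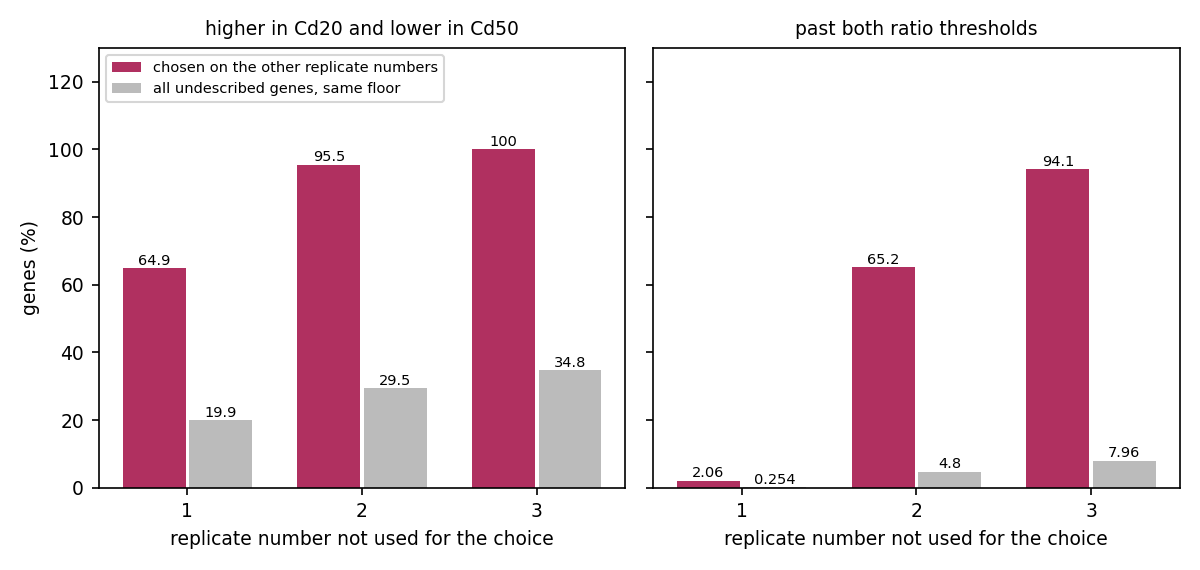
Share of genes (vertical axis, %) that were higher in Cd20 and lower in Cd50 than in Control (left), or past both ratio thresholds (right), in the replicate number on the horizontal axis, which was not used for the choice. Red bars are genes chosen on the other 2 replicate numbers and grey bars all undescribed genes at the same mean. The red bars of replicate 1 are the lowest, at 64.9% and 2.06%.

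In a test over all 11140 genes that passed a filter on low counts (edgeR quasi-likelihood test, Benjamini-Hochberg adjusted p under 0.05), 122 of 172 members were called higher in Cd20 than in Control, where 23.8% of all genes were. In Cd50 against Control 125 members were called lower (21.8% of all genes), and in Cd50 against Cd20 all 172 (34.7% of all genes). All 172 members passed the filter. These counts restate the contrasts that chose the members and are given only to show how far the spread between libraries let the differences pass. When 1 library was left out, the first count fell to 57 (Control 2), 60 (Control 3), 79 (Cd20 1), 79 (Cd20 2) or 61 (Cd20 3). The second fell to 63 (Control 1), 58 (Cd50 2) or 58 (Cd50 3), and to 78 with scaling by library size alone. That scaling also changed the balance of calls over all genes: the share called higher was 36.6% with it and 46.7% with TMM in Cd20 against Control, 70.9% and 44.9% in Cd50 against Control, and 70.6% and 50.4% in Cd50 against Cd20. Without both Control 1 and Cd50 1, 172 and 167 members were called. As these were the highest libraries of their groups in nearly all members, these 2 counts are no check on the pattern. In that fit 3673 of 11229 genes were called higher in Cd20, against 2650 of 11140 with all libraries. In Cd50 against Control 5503 genes were called in either direction, against 4414. In the fits listed above with 1 library left out, 4287 to 4661 genes were called in Cd20 against Control, where all libraries gave 5676. In Cd50 against Control 3054 to 3511 were, and 5433 with library-size scaling. The authors' deposited table lists 168 members as higher in Cd20 than in Control (22.9% of all genes), 107 as lower in Cd50 than in Control (17.2%) and 171 as lower in Cd50 than in Cd20 (30.6%). In the edgeR fit of all libraries, some genes with the largest ratios were not called in both comparisons with Control. A03191 and A05068 were not called in Cd20 (adjusted p 0.0559 and 0.210). A00351, A05591, A05781, A07084 and A06592 were not called in Cd50 (0.0645, 0.0766, 0.246, 0.201 and 0.403). A02986 was called in both. Members called in both were not counted.

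How many genes met the thresholds depended on the scaling and on single libraries. Scaled by library size alone, 55 genes met them, all of them members. All 172 members then had a Cd20/Control ratio above 1 and a Cd50/Control ratio below 1. The thresholds had kept both ratios further from 1 than this scaling moved them, so these directions had to stay and are no check on the pattern. Per 1000000 counts, the size factors were 0.0797 to 0.0859 in Control, lower in Cd20 at 0.0744 to 0.0769 and higher in Cd50 at 0.0917 to 0.104. Scaling by library size therefore lowered every Cd20/Control ratio and raised every Cd50/Control ratio. Except near the floor of the mean, it could add no gene. That all 55 genes were members is thus no check on the pattern. Library-size scaling placed the median log2 ratio of all 9171 genes with a mean of at least 50 at -0.10 in Cd20 against Control and 0.22 in Cd50 against Control, where median-of-ratios scaling gave 0.05 and -0.02. Measured from these medians, the median member lay at 0.64 and -0.73 by library size and at 0.63 and -0.71 by median of ratios. Scaling shifts all genes of a library alike, so these distances had to stay nearly the same and are no check on the pattern. What changed was the number past the fixed thresholds. Without Cd50 1, 388 genes met the thresholds, 170 of them members, and without both Control 1 and Cd50 1, 390 genes did, 167 of them members. Control 1 was the highest Control library in 166 members and Cd50 1 the highest Cd50 library in 169. Leaving out both therefore lowered the Control and Cd50 means of nearly all members and raised their Cd20/Control ratios. The 167 members kept are thus no check on the pattern. Without Cd50 2 the number was 114 and without Cd50 3 it was 111. Leaving out Control 1 or Control 2 alone gave 179 genes each, of which 96 and 110 were members. With library-size scaling and again without Control 1 and Cd50 1, 55 members passed both times. In 24 of these no group overlapped another, which held for 72 of all 172 members and for 5.09% of the 7051 undescribed genes. As the same contrasts chose these genes, the counts of 55 and 24 are a description only.

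**Figure D5:**
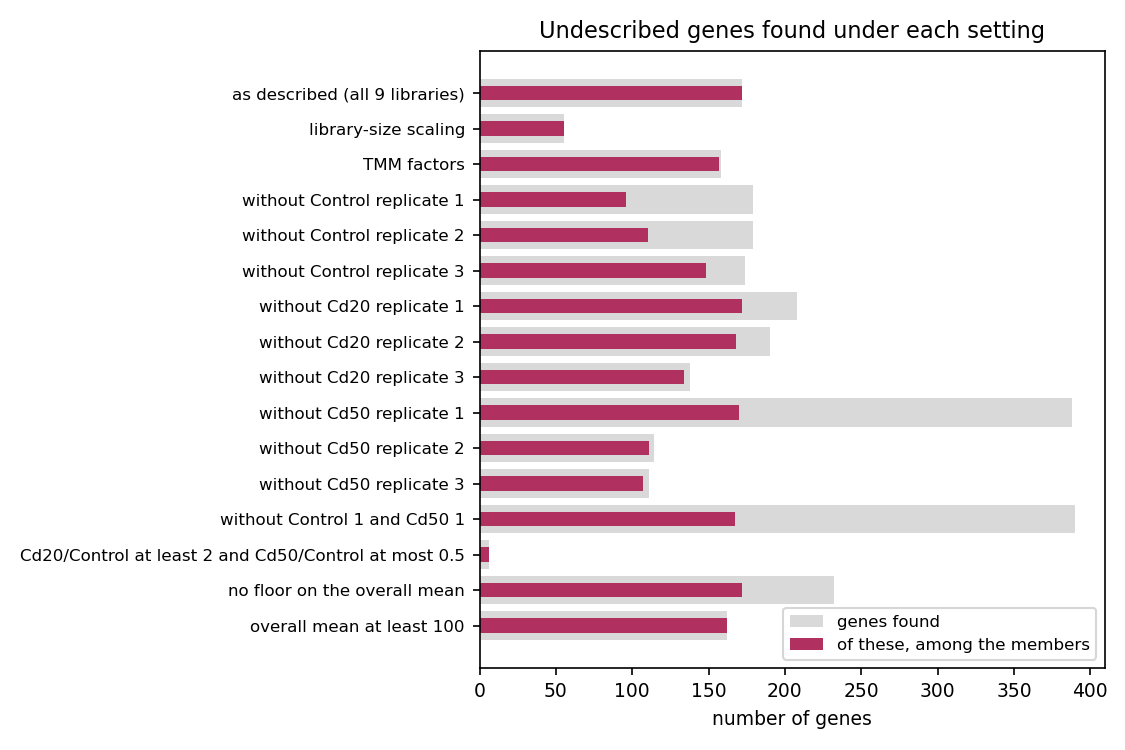
Number of undescribed genes (horizontal axis) that met the thresholds under each setting on the vertical axis, in grey, with those among the 172 members in red. The grey bars are longest without Cd50 1 (388) and without Control 1 and Cd50 1 (390), and the setting with thresholds of 2 and 0.5 leaves 6 genes.

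Members just inside a threshold had nearly the same values as genes just outside it. At the lower limit of the Cd20/Control ratio, A01293 and A10628 were inside at 1.4034 and 1.4057, and A08241 and A10772 were outside at 1.3994 and 1.3983. At the upper limit of the Cd50/Control ratio, A03496 and A05399 were inside at 0.6967 and 0.6975, and A05249 and A01784 were outside at 0.7012 and 0.7015. At the floor of the overall mean, A01413 and A00069 were inside at 50.3 and 54.3 normalised counts, and A06048 and A10724 outside at 49.7 and 48.2. In A01413 Cd50 1, at 60.5, was higher than every Control library, and Cd50 2 and Cd50 3 were at 20.3 and 15.3. Its Cd50/Control ratio was 0.678 with all libraries and 0.405 without Control 1 and Cd50 1. A further 60 undescribed genes met both ratios below the floor and are not members.

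On the deposited coordinates the members were spread over all 17 numbered chromosomes. Chromosome 15 held 13 of them, 5.02% of its 259 undescribed genes at the same mean, and chromosomes 6 and 7 held 4 each, 0.995% and 0.990% of theirs, against 2.44% over all chromosomes. The 13 members on chromosome 15 had Cd20/Control ratios from 1.41 to 2.74 and Cd50/Control ratios from 0.428 to 0.671. Directly neighbouring genes were both members in 4 places. How many such places a random choice of genes would give was not worked out, so no clustering is claimed. On chromosome 9, A10478 and A10479 lie 1980 bp apart and averaged 926 ± 44.0 and 818 ± 68.6 normalised counts in Cd20, against 503 ± 102 and 498 ± 109 in Control (SD, n = 3 each). In Cd50 they averaged 222 ± 102 and 155 ± 68.4, and neither gene had overlapping groups. The pair had coding lengths of 459 and 516 bp, so both are short.

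On chromosome 1, A04929 and A04930 lie 1824 bp apart, with Cd20/Control ratios of 1.43 and 1.54 and Cd50/Control ratios of 0.539 and 0.647. Chromosome 3 held the other 2 pairs. A06052 and A06053, 1830 bp apart, had ratios of 1.44 and 1.80 at 20 mg/L and of 0.391 and 0.530 at 50 mg/L. A06520 and A06522, 1728 bp apart, had ratios of 1.41 and 1.45 at 20 mg/L and of 0.525 and 0.677 at 50 mg/L. In A06520 the Cd20 libraries, at 663, 664 and 802, overlapped the Control libraries, at 665, 390.1 and 458, through Control 1 alone. The other 164 members had no member beside them.

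The members were close in length to other undescribed genes. The listed length is a multiple of 3 in 159 of the 172 members and is called coding length here. It had a median of 1595 bp and ran from 261 to 7629 bp, with a median of 1540.0 bp for the 7051 undescribed genes. The span from start to end of the locus, introns included, was a median of 2.01 times the coding length, against 2.23 times in those genes. Identifiers such as Novel01137, loci listed beside the numbered gene models, made up 17 of the 172 members (9.88%) and 16.8% of the 7051. These 17 had Cd20/Control ratios from 1.41 (Novel00992) to 2.97 (Novel01137) and Cd50/Control ratios from 0.490 (Novel00539) to 0.685 (Novel01036). Without Control 1 and Cd50 1 the lowest Cd50/Control ratio among them was that of Novel00539 (0.320). One member, Novel01301, shares its position with another listed gene, Novel01253, so reads of these loci may be split between them, and the deposited files do not give the strand of either. No members overlapped each other.

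The same 3 thresholds were met by 45 of 2120 described genes (2.12%), a share close to that of undescribed genes. Their product names were taken from fungal proteins, so each role given is that of a similar protein and not of the algal gene itself. Of these, the 12 with the highest Cd20 mean over Cd50 mean included 5 with an informative name. A02270, similar to the ribosome biogenesis protein brx1, which in yeast takes part in assembly of the large ribosomal subunit, averaged 472 ± 145 normalised counts in Control, 772 ± 101 in Cd20 and 235 ± 134 in Cd50 (SD, n = 3 each). A05195, similar to a nucleolar RNA helicase, averaged 2123 ± 369, 3059 ± 308 and 909.8 ± 289 in the same order. The gene beside it on chromosome 2, A05196, similar to pyridoxal phosphate-dependent enzymes of cysteine and methionine metabolism, averaged 2475 ± 596, 3759 ± 341 and 1090.0 ± 539. For A04469, similar to uridylate kinase, which phosphorylates UMP in nucleotide synthesis, the means were 243 ± 61.7, 472 ± 52.3 and 147 ± 45.9, and for A06652, which carries ARM repeats, a protein interaction fold, they were 812 ± 119, 1280.4 ± 129 and 358 ± 156. Some names among the 45 concern making ribosomes or nucleotides, and these were picked after their values were seen. They included A03131, similar to the RNA helicase dbp4, A04162, similar to FCF1, and A09801, similar to a component of the small subunit processome, all of which act in ribosomal RNA processing in yeast. Their Cd20/Control ratios were 1.65, 1.68 and 1.55, and their Cd50/Control ratios 0.584, 0.631 and 0.639. A01869, similar to CTP synthase, and A09429, similar to IMP dehydrogenase, enzymes of pyrimidine and purine nucleotide synthesis, had Cd20/Control ratios of 1.44 and 1.49 and Cd50/Control ratios of 0.639 and 0.667. How many such genes the whole genome holds was not counted, so nothing is said of their share. The other 7 of the 12 (A01809, A09674, A10805, A05113, A02758, A08263 and A02328) carry a hypothetical or uninformative name. In the 45 described genes Control 1 was the highest Control library in 44 and Cd50 1 the highest Cd50 library in 44, the order found in the undescribed members. Next to members lay 2 of the 45: A01809, with a hypothetical name, 12267 bp from A01808, and A05842, similar to RNA-binding protein 8A, 523 bp from Novel00853. Novel00853 had ratios of 2.59 at 20 mg/L and 0.601 at 50 mg/L, and A05842 of 1.84 and 0.667.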

How the data were processed

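Deposited values were used without new alignment. The authors deposited whole-number counts per gene and library and, in a second table, FPKM values with positions, lengths and product names. Recomputed from counts, length and library total, 100% of nonzero FPKM values lay within 1% of the deposited FPKM. STAR (2.7.10a), StringTie (2.2.1) and DESeq2 (1.34.0) appear, without their roles, in the submitters' processing notes. No counting program, strand setting, assembly or annotation was named in the sources used. The authors' 3 deposited tables give group means of normalised counts (a signal scaled by size factors, per the file headers), log2 fold changes and p-values, and only counts of listed members are used from them.

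Normalised counts are counts divided by median-of-ratios size factors from 11510 genes with a count in all 9 libraries. The fit over all genes used edgeR 4.0.16 under R 4.3.3, with TMM factors, the filterByExpr filter and the quasi-likelihood test (group as the only factor, 9 libraries in 1 fit, biological coefficient of variation 0.139), with DESeq2 1.42.0 as an alternative, and the calculations were tested on simulated data. Tables and figures used Python 3.11.15.

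The thresholds, the members and the rule for naming genes were chosen with earlier results of these data known. Named were the 8 members with the highest Cd20 over Cd50 mean, the 5 of highest mean, the 4 with the largest Cd20/Control and the 4 with the smallest Cd50/Control ratio, the 3 with the widest controls, neighbouring members, the genes closest to each threshold, and 12 described genes.

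Residuals of libraries with the same replicate number correlated at 0.59, 0.45 and 0.19 for Cd50 against Control. The values were -0.17, 0.06 and -0.05 for Cd20 against Control and -0.21, 0.13 and -0.22 for Cd50 against Cd20. Libraries of unlike replicate number were not compared and the labels give no pairing. Pairing in Cd50 against Control is therefore possible but not established, and the main fit used none. Alternatives were other scalings, filters and thresholds, a replicate block and leaving out libraries.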

Additional observations from a re-analysis of the deposited data

How the results depend on the processing

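The 172 members became 55 with scaling by library size, 390 without Control 1 and Cd50 1, and 6 with ratios of 2 and 0.5, and 111 to 388 when 1 library was left out. TMM factors gave 158, no floor 232 and a floor of 100 gave 162. For library size the cause lies in the scaling itself, which shifts all ratios, and for the ratios of 2 and 0.5 in the stricter limits; for the libraries left out it was not tested. Members called higher in Cd20 than in Control (122) ranged from 57 to 170 with 1 library left out, and members called lower in Cd50 than in Control (125) from 58 to 170, with 78 under library size alone (edgeR). DESeq2 called 121 and 130. With a replicate block in the fit, 161 members were called in Cd20 against Control, 152 in Cd50 against Control and 172 in Cd50 against Cd20. The block moved none of the counts of calls by over 1.5 times. Calls over all genes, in either direction, moved as well. With 1 library left out they ranged from 4287 to 6383 in Cd20 against Control and from 3054 to 5614 in Cd50 against Control. DESeq2 called 5541 and 4356 genes in these comparisons. With the block 6068 and 4824 genes were called, and 7944 in Cd50 against Cd20. Genes called in all, 5676, 4414 and 7793 in the 3 comparisons, stayed within 1.5 times under each alternative run, but rises among calls made up 36.6%, 70.9% and 70.6% with library size alone, against 46.7%, 44.9% and 50.4% with TMM. The shares read in an unused replicate number were 64.6%, 94.6% and 100% with library-size scaling. Of 957 log2 ratios of the 29 named members under alternatives, 951 moved by less than the replicate spread, 6 by more and 0 changed sign. That spread was taken over all 9 libraries, including those left out, and the thresholds kept the members' ratios away from 1. These counts are therefore a weak check. Counting error weighs most on members near the floor of 50, such as A01413 with 15.3 normalised counts in Cd50 3.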
